A study of Mus musculus with 20 samples.

Results

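Translation initiation factors are the proteins that bring the initiator tRNA, the small ribosomal subunit and an mRNA together at a start codon. Genes were taken as members when they had a probe set assigned to 1 gene symbol and that symbol began with Eif1, Eif2, Eif3, Eif4, Eif5 or Eif6. The eIF2 kinases Eif2ak1 to Eif2ak4, and the sex-linked pair Eif2s3x and Eif2s3y, were left out. The rule found 43 genes, with 52 probe sets, among the 19938 genes of the series that have such a probe set. Of the 43, 42 passed the filter on dim probe sets and were tested among 11968 genes. The exception was Eif4a3l1, which averaged 5.70 on the log2 scale and reached the median of all values (7.45) in 0 of 20 arrays. Eif1, Eif2s1, Eif3g, Eif3j, Eif3j1, Eif3j2, Eif4g1 and Eif4ebp3 were not analysed here.

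RNA was measured on Affymetrix arrays in splenic B cells of C57BL/6 mice aged 8 to 12 weeks, with sex given as mixed, in 10 groups of 2 arrays. The control cells are labelled wild type, mb-1/TAK1+/+, and the deleted cells mb-1/TAK1f/f. TAK1, encoded by Map3k7, is a kinase that connects the B cell receptor to NF-κB and MAP kinases, and mb-1 is another name of Cd79a, a locus used to drive Cre recombinase in the B lineage. Both genotypes thus carry the mb-1 label, and only the deleted cells carry floxed TAK1 alleles. B cells were enriched by removing CD43-bearing cells on magnetic beads, and cultured in RPMI with 10% serum. Anti-IgM, which cross-links the B cell receptor, was added at 10 µg/ml for 1, 3, 6 or 24 h, and the 0 h cells received none. Neither the number of mice behind an array nor a culture of the 0 h cells is stated, so the p-values speak of the spread among the arrays at hand, part of which may be technical. A change from 0 h may also hold an effect of culture.

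The values are log2 expression after RMA, so a difference of 1 is a 2-fold change. Differences are given with the standard error (SE) of limma, from 2 arrays a group, and a gene was called at an adjusted p below 0.05 over the 11968 genes. Replicates of a group correlated across genes with r of 0.979 to 0.994. Of 12 pan B cell markers tested, 12 lay above the median of all values in every array. Map3k7 itself read 10.16 to 10.76 over the 20 arrays, so its probe set does not check the genotypes. At each time it read higher in the TAK1-deleted array than in the wild type array of the same replicate number. At 0 h the values were 10.60 and 10.40 against 10.32 and 10.16. Arrays with the same replicate number deviated together, and a second fit with that number as a block is given where it changes a call. It is named the blocked fit.

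Initiation runs through steps served by different members. The eIF2 complex carries the initiator tRNA to the small subunit and is recharged with GTP by eIF2B, while eIF1, eIF1A, eIF3 and eIF5 assemble and scan the preinitiation complex. The eIF4 proteins bind the mRNA cap and unwind the leader, and eIF4E-binding proteins block that step until mTOR phosphorylates them. Resting B cells are small and make little protein, and stimulation through the antigen receptor is known to enlarge them and raise protein synthesis.

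Most initiation factor genes rose in wild type cells after anti-IgM, from 3 h on. In wild type cells 5 members were higher and 3 lower at 1 h, against 10.6% and 13.9% of all genes. At 3 h, 24 were higher and 2 lower, against 20.9% and 23.2% of all genes. At 6 h the counts were 28 and 1, against 24.1% and 19.1%, and at 24 h they were 29 and 1, against 23.6% and 20.2%. The median change of the 42 members was -0.04 at 1 h, 0.55 at 3 h, 0.66 at 6 h and 0.67 at 24 h, on the log2 scale. Over all genes tested the median stayed between -0.05 and 0.07. The 23 members called higher at 3, 6 and 24 h include Eif1a, Eif2b3, Eif3a, Eif4e and Eif6. Leaving out each array in turn, 3 of 8 calls at 1 h, 21 of 26 at 3 h, 23 of 29 at 6 h and 24 of 30 at 24 h held every time. At 1 h the count of 8 calls dropped to 5 without wild type 0 h replicate 1.

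In TAK1-deleted cells more members were called higher than lower at each time. At 1 h 7 members were higher and 1 lower, against 9.10% and 10.2% of all genes. At 3 h 20 were higher and 3 lower, against 19.6% and 22.1%. At 6 h the counts were 22 and 1, against 18.5% and 17.3%, and at 24 h they were 20 and 1, against 14.9% and 12.7%. The members' median change was 0.06, 0.41, 0.45 and 0.35 at 1, 3, 6 and 24 h, which is below that of wild type cells from 3 h on and not at 1 h. In the blocked fit 10 members were higher and 4 lower at 1 h, against 15.1% and 21.2% of all genes. The 8 calls at 1 h became 3 without TAK1-deleted 1 h replicate 1 and 5 without the other 1 h replicate or either 0 h replicate of that genotype. Of the calls, 2 of 8, 16 of 23, 16 of 23 and 9 of 21 held with every array left out in turn. The 21 calls at 24 h became 10 without TAK1-deleted 24 h replicate 1.

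The mean of the 42 members in each array shows the size of this shift. In wild type cells it was 10.60 and 10.48 at 0 h, 10.59 and 10.43 at 1 h, 11.10 and 11.04 at 3 h. It was 11.15 and 11.12 at 6 h, then 11.17 and 11.01 at 24 h. In TAK1-deleted cells it was 10.63 and 10.49 at 0 h, 10.74 and 10.53 at 1 h, 11.05 and 10.93 at 3 h, 10.99 and 10.95 at 6 h, then 10.92 and 10.80 at 24 h. Arrays at 3, 6 and 24 h lay above both 0 h arrays in each genotype, while the 1 h arrays overlapped them. At 24 h both TAK1-deleted arrays lay below both wild type arrays. The highest group mean came at 24 h for 15 members in wild type cells and for 12 in TAK1-deleted cells, and at 3 h for 10 and 17. These times were not counted over all genes. Markers of other cells moved over the same time. The mean of 16 monocyte or macrophage markers ran from 10.67 to 10.73 in wild type cells at 0 h and from 8.20 to 8.28 at 24 h; in TAK1-deleted cells the ranges were 10.64 to 10.80 and 9.57 to 9.68. The mean of 12 neutrophil markers ran from 9.47 to 9.63 and then 7.27 to 7.43 in wild type cells, but from 9.54 to 9.68 and then 9.19 to 9.22 in TAK1-deleted cells. Platelet markers went from 8.16 to 8.19 at 0 h to 8.19 to 8.25 at 24 h in TAK1-deleted cells, and plasma cell markers from 9.10 to 9.30 to 9.35 to 9.60, while both means were lower at 24 h in wild type cells. The mean of the 12 pan B cell markers was 12.91 to 13.06 in wild type cells and 12.89 to 13.00 in TAK1-deleted cells at 0 h, and 11.71 to 11.83 and 11.82 to 11.91 at 24 h. The part of these markers' cells in the members' changes was not tested. In such bulk RNA, fewer cells of a type and less RNA per cell cannot be told apart.

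**Figure D1:**
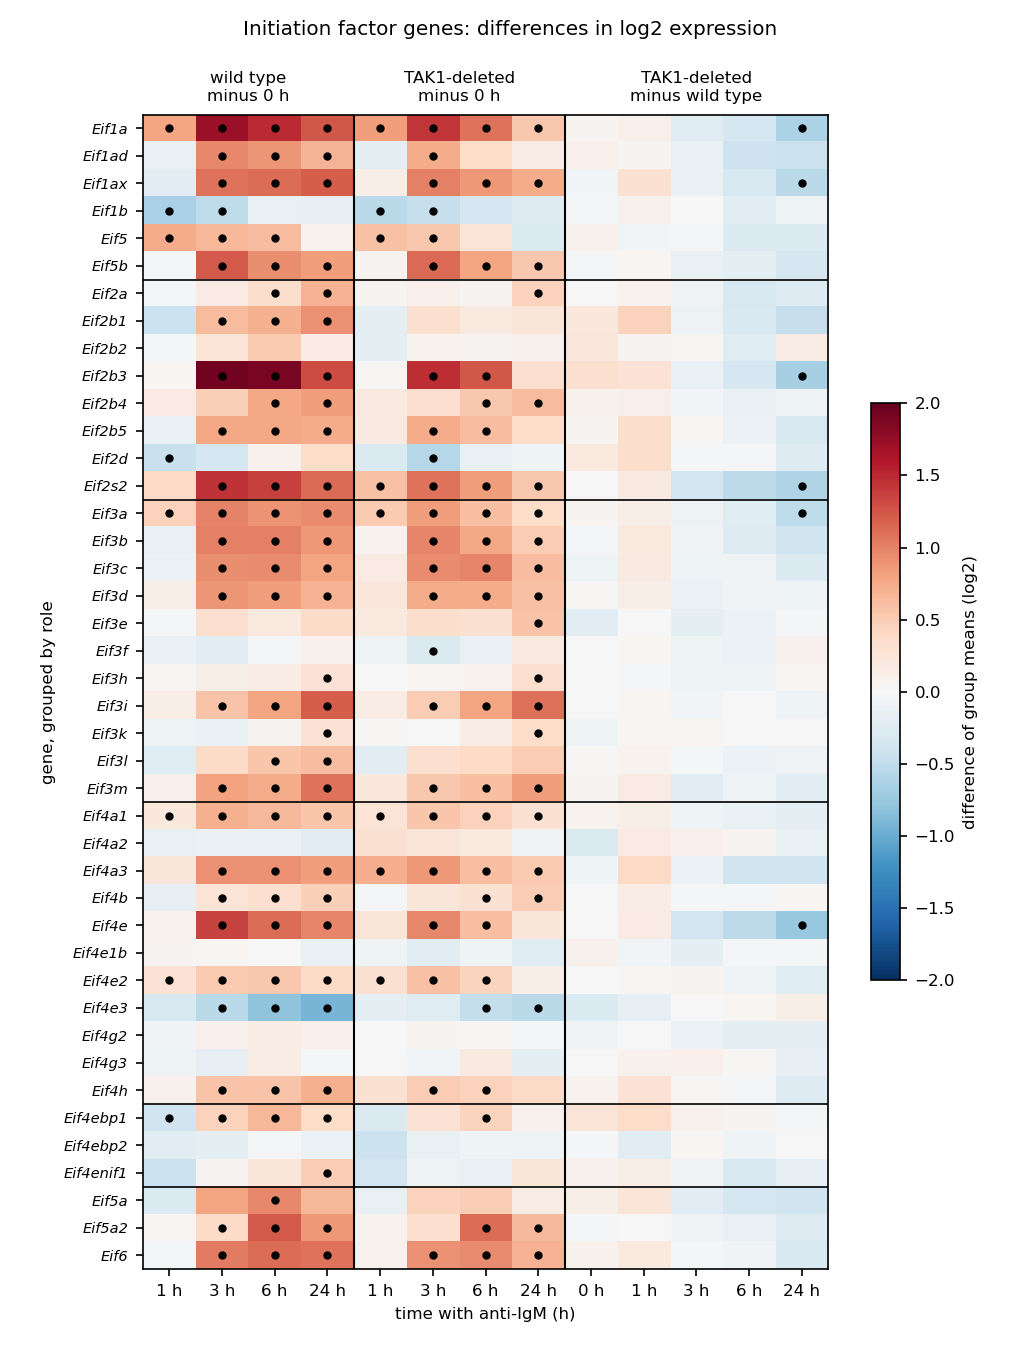
Difference of group means on the log2 scale (colour) for the 42 tested members, in rows by role, in 13 comparisons in columns: 4 times against 0 h in each genotype and TAK1-deleted minus wild type at 5 times. A dot marks an adjusted p below 0.05 in the fit without the replicate block. The dots fill most rows from 3 h on, and between genotypes only the 24 h column has any, with 6.

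The factors of scanning and start codon choice include eIF1, eIF1A, eIF5 and eIF5B. Of the 6 genes tested here 5 were higher and 1 lower in wild type cells at 3 h, and the same counts were found in TAK1-deleted cells. Of all genes, 20.9% were higher and 23.2% lower in wild type cells at 3 h, and 19.6% and 22.1% in TAK1-deleted cells. Eif1a and Eif1ax both encode eIF1A, which holds the scanning complex open with eIF1. Eif1a read 8.98 and 8.85 in wild type cells at 0 h, 9.85 and 9.57 at 1 h, 10.68 and 10.60 at 3 h, then 10.28 and 10.03 at 24 h. Every later array lay above both 0 h arrays. The rise was 0.80 ± 0.14 (SE) at 1 h, the largest of any member at that time, and 1.73 ± 0.14 at 3 h (3.31-fold, adjusted p = 1.01e-07). In TAK1-deleted cells Eif1a read 9.04 and 8.90 at 0 h, 10.37 and 10.43 at 3 h, then 9.47 and 9.56 at 24 h. It rose by 0.84 at 1 h, 1.43 at 3 h, 1.08 at 6 h and 0.55 at 24 h.

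Eif1ax, the X-linked copy, started later. It read 9.71 and 9.55 in wild type cells at 0 h, 9.59 and 9.22 at 1 h, 10.70 and 10.74 at 3 h, then 11.08 and 10.63 at 24 h. The 1 h arrays overlapped the 0 h arrays, and the arrays at 3 h and 24 h lay above them. The change was 1.09 ± 0.16 at 3 h, 1.12 at 6 h and 1.22 ± 0.16 at 24 h (2.33-fold, adjusted p = 1.58e-05), and in TAK1-deleted cells 1.00, 0.86 and 0.74 at those times. Eif1ad, whose product resembles eIF1A, rose by 0.96, 0.88 and 0.68 at 3, 6 and 24 h in wild type cells. TAK1-deleted cells showed a rise of 0.74 at 3 h, and the differences of 0.36 at 6 h and 0.14 at 24 h were not called; the blocked fit called the former (adjusted p = 0.00521).

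Eif5 encodes the GTPase-activating protein of eIF2 and Eif5b the GTPase that joins the ribosomal subunits. Eif5 read 11.91 and 11.70 in wild type cells at 0 h, 12.66 and 12.41 at 1 h, then 12.00 and 11.75 at 24 h, so the 1 h arrays were high and the 24 h arrays overlapped the start. It rose by 0.73 at 1 h, 0.66 at 3 h and 0.62 at 6 h in wild type cells, and by 0.59 and 0.54 at 1 and 3 h in TAK1-deleted cells. Its difference at 24 h was 0.07 in wild type cells and -0.28 in TAK1-deleted cells, of which the blocked fit called the latter (adjusted p = 0.00274). Eif5b changed by -0.02 at 1 h, without a call, and rose by 1.23 at 3 h, 0.93 at 6 h and 0.84 at 24 h in wild type cells; in TAK1-deleted cells it rose by 1.14, 0.79 and 0.54.

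Eif1b, which encodes a near copy of eIF1, went the other way. In wild type cells it read 11.22 and 11.34 at 0 h, 10.76 and 10.48 at 1 h, 10.80 and 10.75 at 3 h, then 11.23 and 10.98 at 24 h. The arrays at 1 and 3 h lay below both 0 h arrays and those at 24 h overlapped them. It fell by 0.65 at 1 h and 0.50 at 3 h in wild type cells, and by 0.54 and 0.47 in TAK1-deleted cells. Its differences of -0.34 at 6 h and -0.25 at 24 h in TAK1-deleted cells were not called, and the blocked fit called both (adjusted p = 0.00824 and 0.0483).

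The eIF2 and eIF2B genes supply and recharge the initiator tRNA carrier. Of 8 tested, 4 were higher and 0 lower at 3 h in wild type cells, then 6 and 0 at 6 h and again at 24 h. At these times 20.9%, 24.1% and 23.6% of all genes were higher there, and 23.2%, 19.1% and 20.2% lower. In TAK1-deleted cells 3 of the 8 were higher and 1 lower at 3 h, 4 and 0 at 6 h, then 3 and 0 at 24 h. Of all genes in that genotype, 19.6%, 18.5% and 14.9% were higher and 22.1%, 17.3% and 12.7% lower. Eif2b3, the gamma subunit of the exchange factor eIF2B, had the largest rise of any member in wild type cells at 3, 6 and 24 h. It read 9.34 and 9.10 at 0 h, 9.40 and 9.11 at 1 h, 11.21 and 11.07 at 3 h, 11.20 and 11.03 at 6 h, then 10.71 and 10.33 at 24 h. The 1 h arrays were level with 0 h, and all later ones stood apart. The rise was 1.92 ± 0.175 at 3 h (3.79-fold, adjusted p = 3.08e-07), 1.90 at 6 h and 1.30 at 24 h.

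In TAK1-deleted cells Eif2b3 read 9.69 and 9.38 at 0 h, 11.04 and 10.97 at 3 h, 10.81 and 10.75 at 6 h, then 9.95 and 9.75 at 24 h. It rose by 1.47 at 3 h and 1.24 at 6 h, and its difference at 24 h was 0.31 ± 0.175 (adjusted p = 0.216; 0.0138 in the blocked fit). The 24 h arrays lay only just above the higher 0 h array. Eif2b1, the alpha subunit, rose by 0.63, 0.71 and 0.92 at 3, 6 and 24 h in wild type cells and differed by 0.32, 0.19 and 0.25 in TAK1-deleted cells, without a call there except at 3 h in the blocked fit (adjusted p = 0.0177). Eif2b4 and Eif2b5, the delta and epsilon subunits, rose by 0.83 and 0.74 at 24 h in wild type cells. In TAK1-deleted cells the rise of Eif2b4 was 0.64, and Eif2b5 differed by 0.37 (adjusted p = 0.0906; 0.00784 in the blocked fit). Eif2b2, the beta subunit, was called at no time in either genotype; its largest difference was 0.53 in wild type cells at 6 h (adjusted p = 0.117; 0.00076 in the blocked fit).

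Eif2s2 encodes the beta subunit of eIF2. It read 9.89 and 9.81 in wild type cells at 0 h, 11.26 and 11.34 at 3 h, then 11.23 and 10.74 at 24 h, with all arrays at 3 and 24 h above 0 h. Its rise was 1.45 at 3 h, 1.36 at 6 h and 1.13 at 24 h in wild type cells. In TAK1-deleted cells the arrays read 9.71 and 9.98 at 0 h, 10.89 and 10.98 at 3 h, then 10.48 and 10.29 at 24 h, again above 0 h. The rises there were 0.59 at 1 h, 1.09 at 3 h, 0.84 at 6 h and 0.54 at 24 h. At 1 h in wild type cells the difference was 0.40 (adjusted p = 0.0743; 0.0169 in the blocked fit).

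Eif2a and Eif2d encode factors that can deliver initiator tRNA outside the eIF2 route. Eif2a moved late, with a rise of 0.36 at 6 h and 0.70 at 24 h in wild type cells and of 0.46 at 24 h in TAK1-deleted cells. Eif2d read 9.67 and 9.33 in wild type cells at 0 h and 9.16 and 8.96 at 1 h, below both 0 h arrays, a fall of 0.44. TAK1-deleted arrays read 9.79 and 9.61 at 0 h and 9.17 and 9.08 at 3 h, a fall of 0.57.

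The eIF3 complex is the scaffold that binds the small subunit and recruits eIF4F-bound mRNA. Of 11 subunit genes tested, 6 were higher and 0 lower in wild type cells at 3 h, 7 and 0 at 6 h, then 9 and 0 at 24 h. In TAK1-deleted cells the counts were 6 and 1, 6 and 0, and 9 and 0. The shares of all genes at these times are those given with the eIF2 and eIF2B genes. The subunits differed in size and timing. Eif3a, the largest scaffold subunit, read 10.54 and 10.33 in wild type cells at 0 h, 11.01 and 10.80 at 1 h, 11.40 and 11.47 at 3 h, then 11.50 and 11.26 at 24 h, each later array being above 0 h. It rose by 0.47 at 1 h, 1.00 ± 0.12 at 3 h, 0.90 at 6 h and 0.94 at 24 h. The TAK1-deleted arrays read 10.53 and 10.45 at 0 h, 11.29 and 11.37 at 3 h, then 10.93 and 10.79 at 24 h, and Eif3a rose by 0.53, 0.84, 0.60 and 0.37 at 1, 3, 6 and 24 h.

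Eif3b, Eif3c and Eif3d, core or mRNA-contacting subunits, rose by 1.02, 0.93 and 0.88 at 3 h in wild type cells and by 0.97, 0.94 and 0.74 in TAK1-deleted cells. Their group means were highest at 3 or 6 h in both genotypes. Eif3i and Eif3m reached their highest means at 24 h. Eif3i, a WD-repeat subunit, read 10.32 and 10.61 in wild type cells at 0 h, 10.90 and 11.16 at 3 h, 11.13 and 11.38 at 6 h, then 11.60 and 11.74 at 24 h. No array from 3 h on overlapped 0 h, and the rise was 0.57, 0.79 and 1.21 at 3, 6 and 24 h. TAK1-deleted cells had nearly the same values for Eif3i, 10.41 and 10.53 at 0 h and 11.55 and 11.58 at 24 h. Its rise there was 1.10, the largest of any member in that genotype at 24 h, and its change was smaller than in wild type cells by a difference of -0.11, which was not called.

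The rise of Eif3m at 24 h was 1.09 in wild type cells and 0.83 in TAK1-deleted cells. Eif3l rose by 0.55 and 0.61 at 6 and 24 h in wild type cells; in TAK1-deleted cells its differences of 0.40 and 0.51 were not called but were in the blocked fit (adjusted p = 0.000377 and 3.92e-05). The subunits Eif3h and Eif3k changed little, by 0.29 and 0.28 at 24 h in wild type cells and by 0.33 and 0.37 in TAK1-deleted cells, and these 4 rises were called, though with each array centred on its median the wild type pair was not. Eif3e rose by 0.56 at 24 h in TAK1-deleted cells and differed by 0.38 in wild type cells (adjusted p = 0.0521; 0.0177 in the blocked fit). Eif3f, a subunit with an MPN domain, read 12.89 and 12.95 in TAK1-deleted cells at 0 h and 12.57 and 12.70 at 3 h. It fell by 0.28 there, a call lost with median centring, and differed by -0.20 at 3 h in wild type cells (adjusted p = 0.0623; 0.0197 in the blocked fit).

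The eIF4 genes serve the mRNA cap and the helicase. Of 11 tested, 6 were higher and 1 lower in wild type cells at each of 3, 6 and 24 h, and in TAK1-deleted cells 5 and 0, 6 and 1, and 3 and 1. The shares of all genes at these times are those given with the eIF2 and eIF2B genes. At 24 h in TAK1-deleted cells they were 14.9% higher and 12.7% lower. Eif4e encodes the cap-binding protein. Its brightest probe set read 9.67 and 9.73 in wild type cells at 0 h, 9.95 and 9.59 at 1 h, 11.05 and 11.03 at 3 h, 10.84 and 10.79 at 6 h, then 10.86 and 10.49 at 24 h. Arrays from 3 h on stood well above 0 h, by 1.35 ± 0.16 at 3 h (2.54-fold, adjusted p = 5.21e-06), 1.12 at 6 h and 0.98 at 24 h. TAK1-deleted arrays read 9.74 and 9.64 at 0 h, 10.77 and 10.53 at 3 h, 10.24 and 10.35 at 6 h, then 10.01 and 9.84 at 24 h. Eif4e rose by 0.97 there at 3 h and 0.61 at 6 h, and its difference at 24 h was 0.24 (adjusted p = 0.321).

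The other cap-binding relatives behaved differently. Eif4e2, which encodes 4EHP, a cap-binding repressor, rose by 0.29 at 1 h, 0.53 at 3 h and at 6 h, and 0.38 at 24 h in wild type cells, and by 0.30, 0.59 and 0.45 at 1, 3 and 6 h in TAK1-deleted cells. Eif4e3, a divergent cap-binding relative, was the only member called lower at 6 or 24 h, in each genotype. It read 9.40 and 9.10 in wild type cells at 0 h, 8.68 and 8.76 at 3 h, 8.37 and 8.54 at 6 h, then 8.19 and 8.44 at 24 h, each below both 0 h arrays. The fall was 0.53 at 3 h, 0.80 at 6 h and 0.94 at 24 h. In TAK1-deleted cells it read 9.19 and 8.75 at 0 h, then 8.55 and 8.33 at 24 h. It fell there by 0.47 at 6 h and 0.54 at 24 h. Eif4e1b, the germline form, read 7.61 to 8.43 over the 20 arrays and was not called.

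Among the helicase genes, Eif4a1 encodes the main eIF4A. Its brightest probe set read 12.84 and 12.95 in wild type cells at 0 h, 13.18 and 13.04 at 1 h, 13.64 and 13.57 at 3 h, then 13.48 and 13.42 at 24 h. All later arrays lay above 0 h, and it rose by 0.22, 0.71, 0.65 and 0.56 at 1, 3, 6 and 24 h. In TAK1-deleted cells the rises were 0.28, 0.56, 0.46 and 0.30. The call at 1 h in wild type cells was lost under 5 alternatives, the own-chromosome probe set and no filter among them. The calls at 1 and 24 h in TAK1-deleted cells were also lost with the own-chromosome probe set. The related Eif4a2 gave another picture: it read 11.64 and 11.56 in wild type cells at 0 h and 11.48 and 11.28 at 24 h, and 11.38 and 11.25 in TAK1-deleted cells at 0 h, 11.71 and 11.52 at 1 h, then 11.35 and 11.14 at 24 h. None of its differences was called, at -0.15, -0.13, -0.14 and -0.22 in wild type cells and 0.30, 0.26, 0.20 and -0.07 in TAK1-deleted cells. The blocked fit called 3 of them, the 24 h value in wild type cells (adjusted p = 0.0476) and the values at 1 and 3 h in TAK1-deleted cells (adjusted p = 0.0138 and 0.0242). Eif4a3, the exon junction complex helicase, rose by 0.91, 0.91 and 0.83 at 3, 6 and 24 h in wild type cells and by 0.73, 0.87, 0.59 and 0.52 at 1, 3, 6 and 24 h in TAK1-deleted cells.

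Eif4b and Eif4h encode cofactors that stimulate the helicase. Eif4b rose by 0.28, 0.34 and 0.47 at 3, 6 and 24 h in wild type cells, and by 0.30 and 0.50 at 6 and 24 h in TAK1-deleted cells. Eif4h rose by 0.58, 0.57 and 0.71 in wild type cells and by 0.52 and 0.47 at 3 and 6 h in TAK1-deleted cells, where its 24 h difference of 0.38 was not called (adjusted p = 0.057; 0.00504 in the blocked fit). The scaffold genes stayed near their starting values. Eif4g2, which encodes DAP5, read 12.33 and 12.20 in wild type cells at 0 h and 12.45 and 12.29 at 24 h, and its differences from 0 h ran from -0.07 to 0.15. Eif4g3 differed by -0.16 to 0.15 in wild type cells and by -0.20 to 0.18 in TAK1-deleted cells, and neither scaffold gene was called at any time.

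The eIF4E-binding proteins restrain Eif4e. Eif4ebp1 dipped and then rose: it read 10.24 and 10.03 in wild type cells at 0 h, 9.75 and 9.71 at 1 h, 10.66 and 10.54 at 3 h, 10.82 and 10.78 at 6 h, then 10.48 and 10.51 at 24 h. The 1 h arrays lay below 0 h and the later ones above, with a fall of 0.40 at 1 h and rises of 0.47, 0.66 and 0.36. The TAK1-deleted arrays read 10.42 and 10.37 at 0 h, 10.17 and 10.04 at 1 h, 11.04 and 10.65 at 6 h, then 10.58 and 10.37 at 24 h. It rose by 0.45 at 6 h there; the blocked fit also called -0.29 at 1 h and 0.29 at 3 h (adjusted p = 0.0236 and 0.0147). Eif4ebp2 read 10.99 to 11.60 in wild type cells and 10.73 to 11.83 in TAK1-deleted cells, and was not called at any time. Eif4enif1, which encodes 4E-T, a carrier of eIF4E to the nucleus and to P-bodies, rose by 0.49 at 24 h in wild type cells and differed by 0.24 in TAK1-deleted cells (adjusted p = 0.336; 0.0459 in the blocked fit).

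**Figure D2:**
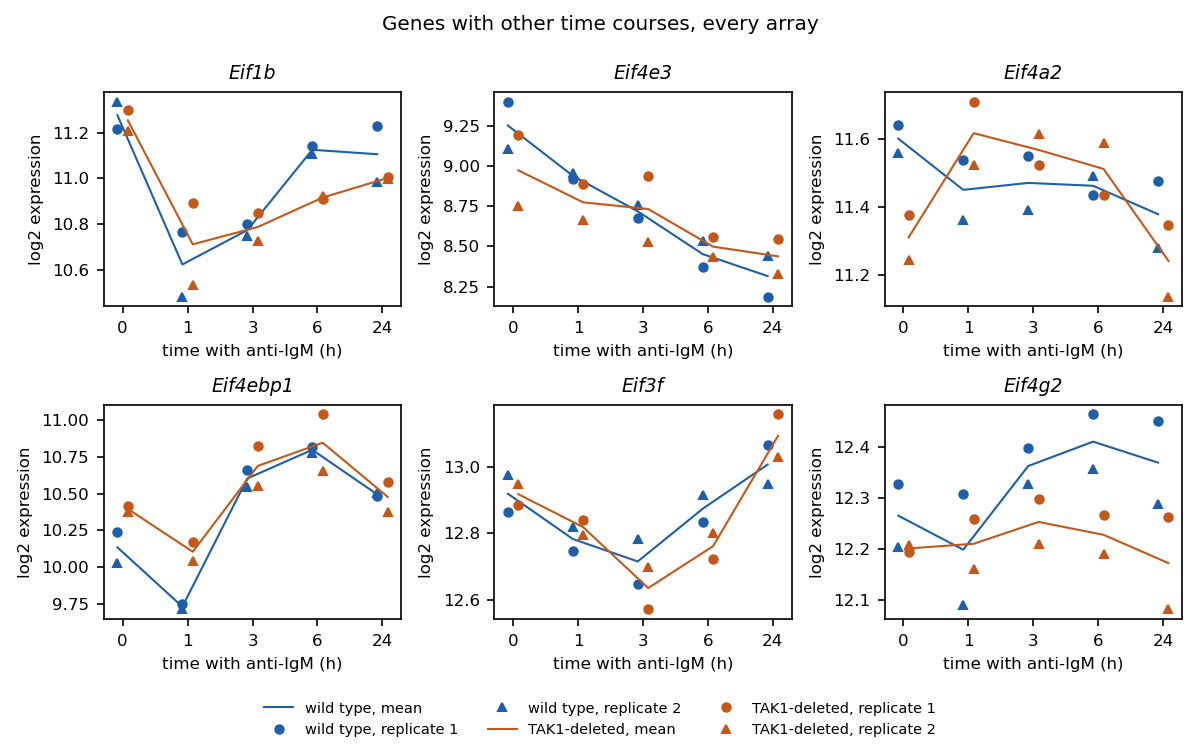
Log2 expression in every array (points, with circles for replicate 1 and triangles for replicate 2) and group means (lines) against time with anti-IgM for 6 genes in wild type and TAK1-deleted cells, with times evenly spaced and a y axis for each panel. Eif1b dips at 1 h and 3 h, Eif4e3 declines to 24 h, Eif4ebp1 dips at 1 h and then rises, and Eif4a2 and Eif4g2 stay within a narrow range.

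Eif5a, Eif5a2 and Eif6 act around initiation. Eif5a and Eif5a2 encode the factor that carries hypusine and relieves stalled ribosomes, and eIF6 keeps free large subunits apart from small ones. Eif5a varied between replicates, with 12.53 and 11.98 in wild type cells at 0 h, 13.23 and 12.85 at 3 h, 13.33 and 13.09 at 6 h, then 13.02 and 12.82 at 24 h. Its rise of 0.96 at 6 h was called, and the differences of 0.78 at 3 h and 0.67 at 24 h were not called, except in the blocked fit (adjusted p = 7.69e-06 and 5.36e-05, against 0.0504 and 0.0958). In TAK1-deleted cells its differences were 0.46, 0.49 and 0.15 at 3, 6 and 24 h, of which the blocked fit called the former pair (adjusted p = 0.00217 and 0.00143). Eif5a2 read 7.97 and 7.87 in wild type cells at 0 h, 8.17 and 8.44 at 3 h, then 9.14 and 9.16 at 6 h, and rose by 0.38, 1.23 and 0.87 at 3, 6 and 24 h. In TAK1-deleted cells it rose by 1.11 and 0.65 at 6 and 24 h. Eif6 read 10.55 and 10.42 in wild type cells at 0 h and 11.36 and 11.70 at 3 h, each array from 3 h on being above. It rose by 1.05, 1.12 and 1.09 at 3, 6 and 24 h in wild type cells and by 0.92, 0.95 and 0.69 in TAK1-deleted cells.

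The blocked fit also called some differences not named so far. In wild type cells these were Eif2b1 (-0.43), Eif3l (-0.25) and Eif4enif1 (-0.42) at 1 h, and Eif2b4 (0.47), Eif2d (-0.35), Eif3e (0.32) and Eif3l (0.38) at 3 h. Later ones in that genotype were Eif3h (0.15) and Eif4enif1 (0.24) at 6 h and Eif2d (0.37) at 24 h. In TAK1-deleted cells they were Eif2d (-0.29), Eif3d (0.23), Eif4enif1 (-0.39) and Eif4h (0.30) at 1 h. At 3 h they were Eif2b4 (0.34), Eif3e (0.36), Eif3l (0.33), Eif4b (0.25) and Eif5a2 (0.34), and at 6 h Eif5 (0.25). The adjusted p of these values in the blocked fit ran from 0.000525 for Eif3l at 3 h in wild type cells to 0.0463 for Eif3h.

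Because most members moved together, their promoters were searched for 3 motifs on both strands: CACGTG, the E-box bound by Myc and Max among others, TGATGNAA, a core of the amino acid response element bound by Atf4, and TGACGTCA, the cyclic AMP response element. The windows run from 250 bases before to 50 after each RefSeq start of build GRCm38.p6, and a gene counted when any of its windows held a match. CACGTG lay in 9 of the 32 members with a window (28.1%), against 8.09% of 27025 genes and 11.7% of the 9586 tested genes with one. TGATGNAA lay in 0 of 32, against 4.51% of all genes and 2.71% of tested genes, and TGACGTCA in 0 of 32, against 2.03% and 3.47%. The 9 are Eif1b, Eif3a, Eif3f, Eif3k, Eif4a1, Eif4e, Eif4h, Eif5a and Eif5a2.

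These stretches are printed because they hold that motif in 3 members that rose, the cap-binding protein, the helicase and its cofactor, and in Eif1b, which fell. Each is 5′ to 3′ on the strand of the gene, with CACGTG in capitals and up to 60 bases on either side, ending at the start where that is nearer. They lie on chr3:138527144-138527267 (plus strand) for Eif4e, chr11:69672547-69672672 (minus) for Eif4a1, chr5:134639440-134639565 (minus) for Eif4h and chr9:120492522-120492605 (plus) for Eif1b, in GRCm38.p6.
Eif4e: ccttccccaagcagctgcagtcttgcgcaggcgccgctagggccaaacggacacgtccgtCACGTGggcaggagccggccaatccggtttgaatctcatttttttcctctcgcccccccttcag
Eif4a1: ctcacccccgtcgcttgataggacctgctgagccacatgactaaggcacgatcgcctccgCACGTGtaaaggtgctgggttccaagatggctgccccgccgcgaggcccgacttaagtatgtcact
Eif4h: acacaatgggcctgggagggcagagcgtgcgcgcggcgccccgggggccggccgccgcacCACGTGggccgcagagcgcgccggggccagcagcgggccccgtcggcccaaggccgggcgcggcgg
Eif1b: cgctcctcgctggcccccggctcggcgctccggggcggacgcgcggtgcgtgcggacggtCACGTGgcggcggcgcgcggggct

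Counted from the start, with -1 the base before it, the printed matches begin at -64 for Eif4e, -189 for Eif4a1, -96 for Eif4h and -24 for Eif1b. The same window of Eif4e holds another match at -228. In wild type cells at 3 h, 5 of the 9 members with CACGTG were higher and 1 lower, with a median change of 0.58. Of the 23 members whose windows lack it, 14 were higher and 0 lower, with a median of 0.63. The members with the motif thus had no larger median change than those without, and at 24 h the medians were 0.67 and 0.69. A match describes the letters of these windows and not the binding of a factor.

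The genotypes were then compared directly at each time. At 0, 1, 3 and 6 h limma called 0 members, while 1, 5, 2 and 6 had an unadjusted p below 0.05. Over all genes 1.50% were higher and 0.819% lower in TAK1-deleted cells at 0 h, 2.07% and 2.21% at 1 h, 1.00% and 1.70% at 3 h, then 0.927% and 1.60% at 6 h. Of all calls at 1 h 48.4% were higher, and 38.4% with each array centred on its median; of those at 6 h 36.6% were higher, and 49.9% after quantile normalization. The median difference of the members was 0.01, 0.11, -0.08 and -0.12 at these times. Compared by replicate number, 34 and 38 of 42 members read lower in TAK1-deleted cells at 6 h, and 7 and 11 of 42 at 1 h. By group means, 37 of 42 members and 5985 of all 11968 genes were lower at 6 h. At 1 h 6 members and 5175 of all genes were lower by group means. The members are not independent of each other, and these counts carry no test.

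The blocked fit called more members at these times. At 1 h it called 5 higher in TAK1-deleted cells, Eif2b1 (0.46), Eif2b5 (0.35), Eif2d (0.35), Eif4a3 (0.40) and Eif4ebp1 (0.37), with adjusted p from 0.00759 to 0.035, against 7.19% of all genes. At 3 h it called Eif4e lower (-0.39, adjusted p = 0.0434), against 4.50% of all genes. At 6 h it called 8 lower, against 7.85% of all genes: Eif1ad (-0.42), Eif2a (-0.31), Eif2b3 (-0.34), Eif2s2 (-0.53), Eif4a3 (-0.40), Eif4e (-0.52), Eif4enif1 (-0.30) and Eif5 (-0.28), with adjusted p from 0.0054 to 0.044.

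At 24 h 6 members were lower in TAK1-deleted cells and 0 higher, against 5.18% of all genes lower and 7.04% higher. They were the cap-binding gene Eif4e (-0.75 ± 0.16, adjusted p = 0.00539), Eif2b3 (-0.67 ± 0.175, 0.0193), Eif1a (-0.64 ± 0.14, 0.00693), Eif2s2 (-0.60 ± 0.16, 0.0184), Eif1ax (-0.53 ± 0.16, 0.0422) and Eif3a (-0.52 ± 0.12, 0.0106). For each of the 6, both TAK1-deleted arrays lay below both wild type arrays. The 6 were called from these same arrays, so this is no separate support. Eif4e stood at 0.593 and Eif2b3 at 0.629 of the wild type level. With another probe set of the gene, described further on, Eif4e (-0.31, adjusted p = 0.43) and Eif2s2 (-0.33, adjusted p = 0.247) were not called. The blocked fit called 19 lower, against 14.1% of all genes, adding Eif1ad, Eif2b1, Eif2b5, Eif2d, Eif3b, Eif3c, Eif4a1, Eif4a3, Eif4e2, Eif4g2, Eif5, Eif5a and Eif5b. The median difference over the 42 members was -0.23, and over all genes 0.00. By replicate number, 34 and 36 of 42 members read lower in TAK1-deleted cells. By group means 37 of 42 members were lower, against 5982 of all 11968 genes.

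The 6 calls rest on few arrays. They became 0 without wild type 24 h replicate 1, 3 without TAK1-deleted 24 h replicate 1 and 1 without TAK1-deleted 24 h replicate 2, and stayed at 6 without wild type 24 h replicate 2. Eif1ax was also not called without the filter on dim probe sets. The sizes moved less: with 1 array left out, Eif4e ranged from -0.94 to -0.57 and Eif2b3 from -0.86 to -0.48. Wild type 24 h replicate 1 read higher than its partner for all 6 genes, for example 11.08 against 10.63 for Eif1ax. TAK1-deleted 24 h replicate 1 also read higher than its partner for each of them except Eif1a, for example 10.44 against 10.19 for Eif1ax.

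**Figure D3:**
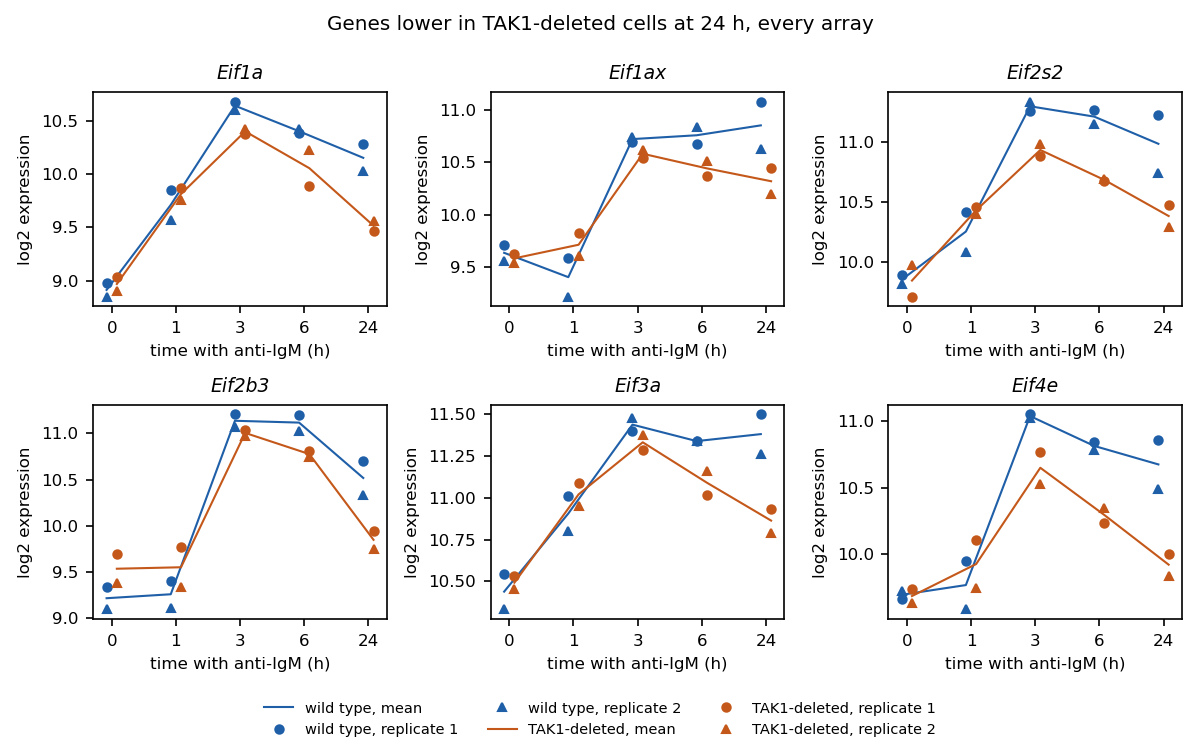
Log2 expression in every array (points, with circles for replicate 1 and triangles for replicate 2) and group means (lines) against time with anti-IgM for the 6 genes called lower in TAK1-deleted cells at 24 h, with times evenly spaced and a y axis for each panel. Without the block no difference between genotypes is called at 0, 1, 3 or 6 h. The blocked fit calls Eif4e lower at 3 h, and Eif2b3, Eif2s2 and Eif4e lower at 6 h. At 24 h both TAK1-deleted arrays lie below both wild type arrays in each panel, which the choice of these genes makes likely.

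Markers of other cells also differed between the genotypes at 24 h. The mean of 16 monocyte or macrophage markers ran from 8.20 to 8.28 in wild type arrays and from 9.57 to 9.68 in TAK1-deleted arrays, with 13 of 16 higher. For 12 neutrophil markers the ranges were 7.27 to 7.43 and 9.19 to 9.22, with 11 higher, and for 12 T cell markers 8.17 to 8.25 and 8.78 to 8.84, with 4 higher. Of 7 platelet or megakaryocyte markers 4 were higher (7.57 to 7.67 against 8.19 to 8.25), of 8 dendritic cell markers 3 (7.50 to 7.63 against 8.17 to 8.24), and of 10 erythroid markers 1 (6.69 to 6.92 against 7.02 to 7.06). The mean of 12 pan B cell markers was 11.71 to 11.83 and 11.82 to 11.91, with 2 higher and 0 lower. RMA values have no 0, and the part of these cells in the members' lower values was not tested. At 0, 1, 3 and 6 h the lists differed in other ways. Of 10 erythroid markers 10, 10, 10 and 8 were higher in TAK1-deleted cells. Of 9 NK cell markers 6, 7, 7 and 5 were lower, of 12 T cell markers 5, 9, 2 and 2, and of 7 plasma cell markers 3, 2, 1 and 1.

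The change from 0 h was itself compared between the genotypes. At 1, 3 and 6 h limma called 0 members, with 3, 1 and 4 at an unadjusted p below 0.05. Over all genes the calls were 0% higher and 0.109% lower at 1 h, 0% and 0.0585% at 3 h, then 0.0919% and 0.192% at 6 h. The higher share of all calls, 0% at 1 and 3 h, was 12.5% and 21.3% with median centring and 17.6% and 34% after quantile normalization. At 24 h 2 members had a smaller change in TAK1-deleted cells, against 4.04% of all genes lower and 4.62% higher. Eif2b3 rose by 1.30 in wild type cells and differed by 0.31 in TAK1-deleted cells, a difference in change of -0.99 ± 0.25 (adjusted p = 0.0186). Eif1a rose by 1.24 and 0.55, a difference of -0.69 ± 0.20 (adjusted p = 0.0408), a call lost without the filter on dim probe sets.

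Next to these lay Eif4e (-0.74, adjusted p = 0.0542), Eif3a (-0.57, 0.0529) and Eif2b1 (-0.67, 0.0857), which were not called. The blocked fit called 3 members at 6 h, Eif1ad (-0.52), Eif2b3 (-0.66) and Eif5 (-0.36), against 4.64% of all genes. At 24 h it called 12, against 10.9% of all genes, adding Eif1ad, Eif2b1, Eif2d, Eif2s2, Eif3a, Eif3b, Eif4a1, Eif4e, Eif5 and Eif5a to Eif1a and Eif2b3. The calls at 24 h became 0 without wild type 24 h replicate 1, wild type 0 h replicate 2, TAK1-deleted 0 h replicate 1 or TAK1-deleted 24 h replicate 2. They became 1 without TAK1-deleted 0 h replicate 2 or TAK1-deleted 24 h replicate 1, and 5 without wild type 24 h replicate 2. A call in wild type cells alone does not show a difference. Of the 29 members higher at 24 h in wild type cells, 19 were also called higher in TAK1-deleted cells. Of the other 10, only Eif2b3 had a called difference in change without the block. With the block, Eif1ad, Eif2b1 and Eif4e were called as well. These comparisons share their 0 h arrays.

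**Figure D4:**
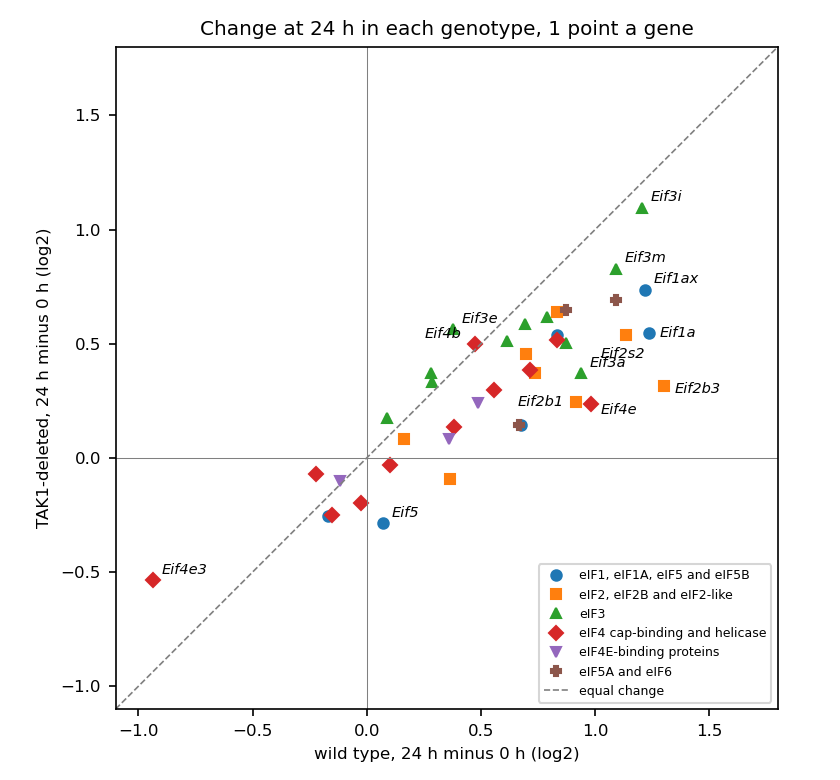
Change from 0 h to 24 h on the log2 scale in TAK1-deleted cells (y axis) against wild type cells (x axis), 1 point for each of 42 members, marked by role. Eif2b3, Eif1a and Eif4e lie well below the dashed line of equal change, Eif3i close to it, and Eif4e3 above it among the falls.

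For 5 members the choice of probe set matters. Of the 7 members with several probe sets, the brightest of Eif2s2, Eif3m, Eif4a1, Eif4e and Eif5a stands, in the order of probe set numbers, among probe sets of another chromosome (8, 1, 19, X and 5), while a dimmer one stands among those of the gene's own chromosome (2, 2, 11, 3 and 11). Eif4e has another, still dimmer probe set among those of chromosome 3, and the brighter of these was taken as its own-chromosome probe set. Whether the brightest ones read processed copies was not tested. Read from the own-chromosome probe set, Eif2s2 rose by 0.92 at 1 h and 1.66 at 3 h in wild type cells, and Eif4a1, Eif3m and Eif5a kept their direction at 3 and 24 h in that genotype. In TAK1-deleted cells at 24 h Eif5a read 0.15 with the brightest and -0.12 with the own-chromosome probe set, neither called. Over 85 values of these genes, 29 were called with the brightest probe set, 6 of them were not called with the own-chromosome one, and 2 others were gained. The change of probe set was chosen after the data were seen.

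The 6 lost calls were 3 of Eif4a1, 2 of Eif4e and 1 of Eif2s2. For Eif4a1 the values hardly moved, to 0.21 at 1 h in wild type cells (adjusted p = 0.143) and to 0.25 and 0.26 at 1 and 24 h in TAK1-deleted cells (adjusted p = 0.0921 and 0.057). The own-chromosome probe set of Eif4e rose by 1.17 at 3 h in wild type cells (adjusted p = 0.000274) and differed by 0.42 at 24 h (adjusted p = 0.124) where the brightest gave 0.98. The difference between genotypes at 24 h was -0.31 (adjusted p = 0.43) where the brightest gave -0.75. For Eif2s2 that difference was -0.33 (adjusted p = 0.247) where the brightest gave -0.60. With these probe sets 4 members remained lower in TAK1-deleted cells at 24 h, namely Eif1a, Eif1ax, Eif2b3 and Eif3a, each of which has 1 probe set. The mean of the probe sets of a gene also left Eif4e uncalled. The dimmest Eif4e probe set, also of chromosome 3, averaged 7.59 and reached the median of all values in 16 of 20 arrays. At 24 h it read 7.59 and 7.76 in TAK1-deleted cells and 7.49 and 7.57 in wild type cells. It thus did not read lower in TAK1-deleted cells, and it was not tested by itself.

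**Figure D5:**
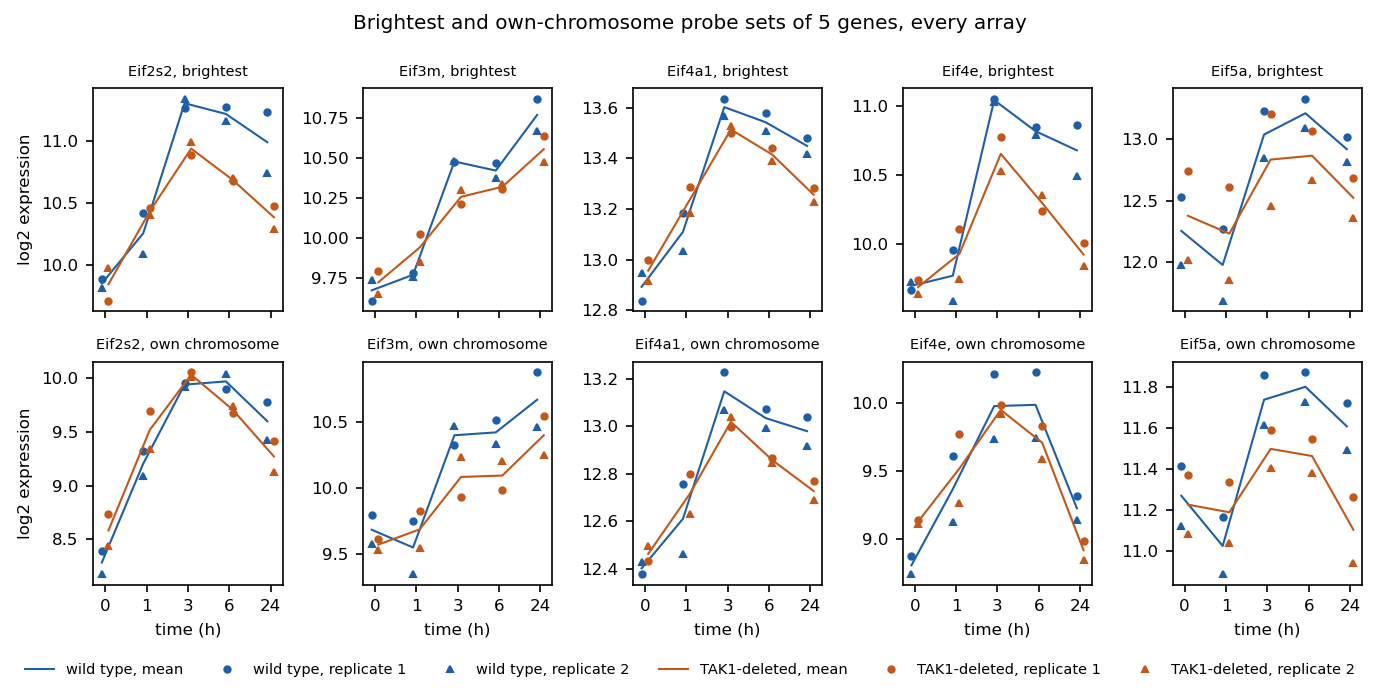
Log2 expression in every array (points, with circles for replicate 1 and triangles for replicate 2) and group means (lines) against time for the brightest probe set (upper row) and the own-chromosome probe set (lower row) of 5 genes in both genotypes. Times are evenly spaced and the y axes differ between panels; for Eif4e the 24 h values return toward 0 h in the lower row and stay high in wild type cells in the upper row.

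Other genes of translation were read from lists of elongation, termination, mRNA-bound and regulatory genes. Of 11 elongation genes, 5 were higher and 1 lower at 3 h, 6 and 0 at 6 h, then 6 and 1 at 24 h in wild type cells, and 4 and 0, 4 and 0, and 3 and 2 in TAK1-deleted cells. Of all genes in wild type cells, 20.9%, 24.1% and 23.6% were higher and 23.2%, 19.1% and 20.2% lower at these times. Of all genes in TAK1-deleted cells, 19.6%, 18.5% and 14.9% were higher and 22.1%, 17.3% and 12.7% lower. Among the elongation genes the largest rise was that of Eef1e1, which encodes a subunit of the multi-tRNA synthetase complex, 1.30, 1.51 and 1.08 in wild type cells. In TAK1-deleted cells it rose by 0.79 and 0.75 at 3 and 6 h, and the difference in change at 24 h was called (-0.85). Dhps and Dohh, the enzymes that make hypusine on eIF5A, rose by 0.93 and 0.96 at 6 h in wild type cells. Eef2k, the kinase that inhibits elongation factor eEF2, fell by 0.43 at 3 h and 0.39 at 24 h there.

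Of 11 genes of termination, recycling and reinitiation, 8 were higher and 0 lower at 3 h in each genotype. The shares of all genes at 3 h were 20.9% and 23.2% in wild type cells and 19.6% and 22.1% in TAK1-deleted cells. Etf1, which encodes release factor eRF1, rose by 0.97, 1.48, 1.28 and 1.32 at 1, 3, 6 and 24 h in wild type cells and by 1.15, 1.21, 0.82 and 0.74 in TAK1-deleted cells, and at 24 h it was lower in TAK1-deleted cells by -0.61. Denr, a reinitiation factor, rose by 1.26 at 3 h in wild type cells and 0.52 in TAK1-deleted cells, and Abce1, the ribosome recycling ATPase, by 1.03 and 0.70. Of 9 mRNA-bound genes 4 were higher and 2 lower at 3 h in wild type cells, and 5 and 1 in TAK1-deleted cells, beside the same shares of all genes. Larp1 and Larp4, RNA-binding proteins of the La family, rose by 1.21 and 1.28 in wild type cells. Pdcd4, an inhibitor of eIF4A, read 12.70 and 12.42 at 0 h and 11.72 and 11.67 at 6 h there, and fell by 0.76, 0.87 and 0.84 at 3, 6 and 24 h.

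Of 18 kinases and phosphatases that act on initiation, 4 were higher and 5 lower at 3 h in wild type cells, near the 20.9% and 23.2% of all genes. In TAK1-deleted cells 6 were higher and 4 lower, against 19.6% and 22.1%. Ppp1r15a, which encodes GADD34, the subunit that directs a phosphatase to eIF2, read 8.25 and 7.69 in wild type cells at 0 h and 11.62 and 11.26 at 1 h. It rose by 3.47 at 1 h in wild type cells and 2.74 in TAK1-deleted cells, and was lower in TAK1-deleted cells at 1 h by -0.87. Pim1, a kinase gene, rose by 2.15 and 1.88 at 1 h and was lower in TAK1-deleted cells at 1, 3 and 6 h. Mtor rose by 0.73 and 0.77 at 3 h, while Mknk1 and Mknk2, kinases of eIF4E, fell by 0.91 and 0.53 in wild type cells at that time.

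Ddit4, an inhibitor of mTOR signalling also called REDD1, separated the genotypes. In wild type cells it read 9.84 and 9.82 at 0 h, 8.94 and 8.98 at 3 h, then 9.46 and 9.33 at 24 h, and fell by 0.41, 0.87, 0.75 and 0.43 at 1, 3, 6 and 24 h. In TAK1-deleted cells it read 9.40 and 9.42 at 0 h, 9.28 and 9.23 at 3 h, then 10.59 and 10.42 at 24 h, so the 24 h arrays were the highest of the genotype. It rose by 0.34 at 6 h and 1.09 at 24 h. The difference in change was called at 6 h (1.08) and 24 h (1.53). The members' median difference in change was 0.10, -0.08, -0.16 and -0.25 at 1, 3, 6 and 24 h. No link between the values was tested.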

How the data were processed

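The 20 arrays were grouped by genotype and time from the labels. The authors deposited RMA values on the log2 scale, for which the submitters' processing notes name Affymetrix Expression Console 1.0; the build behind the probe sets is not given in the sources used here. The values were used without further scaling. Symbols came from the platform's annotation, which can be old. Single-symbol probe sets were kept when 2 or more arrays read at or above 7.45, the overall median, and the brightest was used for each gene.

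All 20 arrays entered 1 model of group means (R 4.3.3; limma 3.58.1, with eBayes and an intensity trend), which left 10 residual degrees of freedom and gave 17 contrasts. Two-sided p-values were adjusted by Benjamini and Hochberg over 11968 genes within each contrast. The fit was tested on simulated data with known changes and independent noise in each array. These data did not hold the shared deviations of same-numbered arrays, so the fit was not tested under them. Background is not subtracted to 0 in RMA, so folds of dim genes can be understated.

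The labels number the replicates 1 and 2 in each group. Deviations of same-numbered arrays correlated in 45 of 45 pairs of groups (0.191 to 0.769, median 0.535). The labels do not say what these arrays share, and a fit with the number as a block was an alternative. Others were the filter, 2 scalings, no trend, the mean of probe sets, each array left out, and the own-chromosome probe set, which was added after the data were seen. The main fit and the fits with an array left out did not use the block.

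Named genes were 11 fixed members where measured, the up to 6 called members with the largest rise and fall in each contrast, and up to 3 called genes of each pathway list in each direction; the remaining members were added so that each is accounted for. The members and lists were chosen with earlier results of these data known. Promoter windows are those of RefSeq, GRCm38.p6, with which 32 members matched by symbol.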

Additional observations from a re-analysis of the deposited data

Results flagged for a closer look

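The change from 0 h to 24 h of 2 members differed between the genotypes in a test of the difference itself (limma, adjusted over all genes). For Eif2b3 the change in TAK1-deleted cells minus that in wild type cells was -0.99 on the log2 scale, with a rise called in wild type cells and, in TAK1-deleted cells, in the fit with the replicate number as a block (adjusted p = 0.0138) but not without it. For Eif1a it was -0.69, with a rise called in each genotype. Groups of 2 arrays are too small for a check of single outlying samples.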

How the results depend on the processing

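No called value of a member changed sign under any alternative, none of which used the dimmest Eif4e probe set by itself. With the replicate number as a block no call was lost in any contrast, and the counts of calls became 14 for TAK1-deleted cells at 1 h, 5, 1, 8 and 19 between genotypes at 1, 3, 6 and 24 h, and 3 and 12 for the difference in change at 6 and 24 h; it moved no other count by over 1.5 times. With median centring the counts were 13 for TAK1-deleted cells at 1 h, 3, 1, 2 and 14 between genotypes at 1, 3, 6 and 24 h, and 1 and 7 for the difference in change at 6 and 24 h. With quantile normalization they were 3, 1 and 13 between genotypes at 1, 6 and 24 h, and 1 and 8 for the difference in change at 6 and 24 h. Calls over all genes grew as well. Between genotypes at 24 h they went from 1462 to 3442 with the block, 2445 with median centring and 2508 with quantile normalization. For the difference in change at 24 h they went from 1037 to 2633, 1764 and 1833. Without the filter the counts of members were 4 in wild type cells at 1 h and 1 for the difference in change at 24 h, and Eif1a was then not called there. The stricter filter, no trend, the mean of probe sets and the own-chromosome probe set kept each count within 1.5 times. The causes were not tested. With 1 array left out, calls ranged in wild type cells from 5 to 6 at 1 h, 23 to 26 at 3 h, 23 to 28 at 6 h and 25 to 30 at 24 h. In TAK1-deleted cells they ranged from 3 to 5, 19 to 22, 17 to 21 and 10 to 17. Between genotypes at 24 h they ranged from 0 to 6, and for the difference in change at 24 h from 0 to 5; of these 8 calls 0 held with every array left out in turn. A group with 1 array left was assumed to vary like the others. The number of arrays limits the precision, with a median SE of 0.161.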
